A study of Mus musculus with 68 samples.

Results

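The 6 libraries described here are the first and second pharyngeal arches (PA1 and PA2) of 3 mouse embryos labelled Hoxa2-/- at embryonic day E10.5, out of 68 libraries in the series. They were chosen by the arch, the genotype label and the stage in the sample labels, with 3 libraries of PA2 and 3 of PA1. The question is what still separates the arches in embryos labelled as lacking functional Hoxa2. Equal replicate numbers mark both arches of a single embryo, so each arch has 3 biological replicates. Comparators are the 6 libraries of wildtype PA1 and PA2 at E10.5 (3 embryos) and PA1 and PA2 of earlier embryos labelled Hoxa2-/-: 10 libraries of 5 embryos at E10.0, 10 libraries of 5 embryos at E9.5 and 8 libraries of 4 embryos at E9.0. All groups share the strain CBA/Ca/J x C57BL/10, received no treatment named in the labels, and are whole arches dissected by hand, so neural crest mesenchyme, mesoderm, ectoderm, endoderm and vessels were measured together. Below, "with the label" means in embryos labelled Hoxa2-/-. The kind of Hoxa2 allele is not given in the sources used here. RNA was measured as polyadenylated transcripts with SMART-seq v4 cDNA, which is made from very little input.

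Each pharyngeal arch is a bulge at the side of the future throat, in which cranial neural crest cells surround a core of mesoderm between an outer ectoderm and an inner endoderm. PA1 forms the jaws, the malleus and the incus from crest cells that express no Hox genes, while PA2 forms the stapes and part of the hyoid bone and its crest cells express Hoxa2. Hoxa2 is the homeobox selector gene of PA2: in mice without it, PA2 crest cells form a mirror-image copy of some PA1 skeletal elements. The epithelia, the mesoderm and the pouches of the arches carry positional differences of their own, through FGF, BMP, Notch and retinoic acid signals and through T-box and Pax genes.

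Values are CPM (reads scaled to a common library size by the authors), and differences are PA2 minus PA1 in log2(CPM + 1), a scale on which low genes appear to differ less than they do. A positive difference is higher in PA2. Tests are limma fits over all 68 libraries with Benjamini-Hochberg adjustment over 18428 genes, and a gene passed at an adjusted p under 0.05. Standard errors (±) rest on the spread of a gene within all 16 groups, not within the 6 libraries alone. The 6 libraries held 10983864 to 15891152 reads, so that 3 reads, taken as the floor of detection, correspond to 0.181 to 0.272 CPM. The wildtype libraries of E10.5 were deeper, with 17244704 to 18700596 reads. Reads were amplified by PCR and carry no molecular identifiers, so floors cover counting error only. The wildtype libraries of all stages other than E10.0, 24 in number, stand apart from the other 44 libraries: 17 genes were higher and 2 lower in them without overlap. Ski, for example, ran from 26.3 to 54.8 CPM in wildtype at E10.5 and from 9.28 to 14.3 CPM in embryos labelled Hoxa2-/- at E10.5. At E10.5 this division coincides with the genotype label, and both cannot be told apart, whereas PA2 and PA1 of 1 label lie on the same side of it. The 4 defining mesenchyme genes Prrx1, Prrx2, Twist1 and Pdgfra were read in all 6 libraries, Prrx1 at 156 to 257 CPM and Twist1 at 36.8 to 49.5 CPM.

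Between the arches labelled Hoxa2-/- at E10.5, 252 of 18428 genes passed (1.37%), 181 higher in PA2 (0.982%) and 71 higher in PA1 (0.385%). Higher in PA2 were 4 Hox genes, pouch genes such as Pax1 and Fgf3, Notch genes such as Hey1, and factors of head muscle progenitors such as Tcf21. Higher in PA1 were 8 of 14 jaw homeobox genes, among them Pitx1, Lhx6, Lhx8, Alx1 and Alx4, together with Fgf8 and Tbx22. In whole arches, more cells of a type and more RNA per cell cannot be told apart. The median size of the 252 differences was 1.04 and 133 exceeded 1 on the log2 scale. The sign was the same in all 3 embryos for all 252 genes, and for 249 of them the 3 libraries of one arch did not overlap the 3 of the other. The 252 were picked by a test on these same libraries, so such agreement was likely in advance and gives no separate support. Among all genes tested, 12.8% had all PA2 libraries above all PA1 libraries and 9.03% had them below. The genes nearest to the threshold had adjusted p-values of 0.0491 inside and 0.0503 outside it. Among PA2 genes named by size, Pdlim3, which encodes a protein of actin filaments, had 6.02, 2.61 and 3.27 CPM in PA1 and 16.6, 18.2 and 15.8 CPM in PA2 (1.90, adjusted p 2.56e-05), and Htra3, a secreted protease gene, 3.97, 3.20 and 1.63 against 11.1, 12.9 and 13.2 CPM (1.81, adjusted p 1.44e-07). With the embryo as a block, 474 genes passed (2.57%), 334 higher in PA2 and 140 higher in PA1, including 250 of the 252. Without PA1 replicate 3 the count was 158 and without PA2 replicate 2 it was 167.

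**Figure D1:**
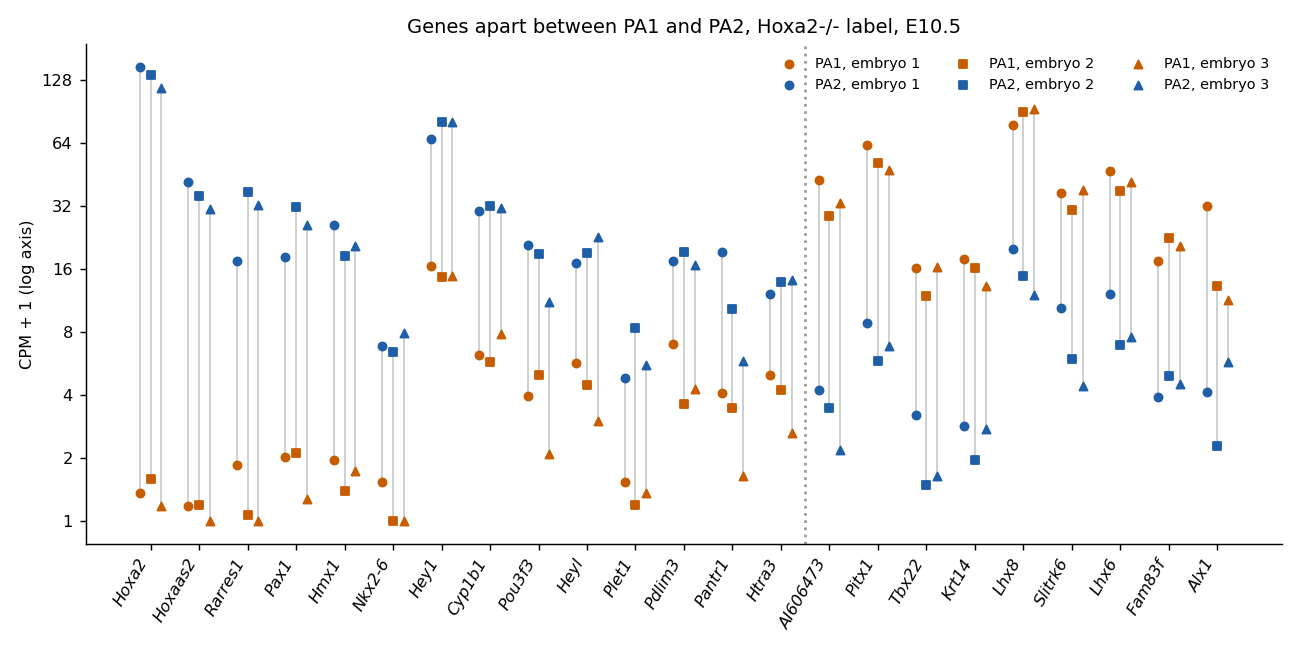
CPM + 1 on a log axis in each of the 6 libraries labelled Hoxa2-/- at E10.5 (orange PA1, blue PA2, 1 symbol per embryo, grey lines joining the arches of 1 embryo) for the 14 genes with the largest differences toward PA2, left of the dotted line, and 9 of the 12 toward PA1. Absence of overlap between the arches was a condition for taking these 23 genes. Hoxa2 reaches 116 to 147 CPM in PA2 against at most 0.588 CPM in PA1.

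Hoxa2 itself showed the largest difference between the arches among the genes that the naming rule took. In PA1 the 3 libraries had 0.361, 0.588 and 0.181 CPM, and in PA2 they had 147, 134 and 116 CPM, a log2 difference of 6.6 ± 0.20 (SE, adjusted p 2.80e-34). The libraries of PA2 labelled Hoxa2-/- were thus rich in Hoxa2 reads, and above the wildtype libraries of PA2, which had 57.2, 63.3 and 54.5 CPM. A read count does not tell whether the transcript makes a protein, so the labels are used as given. Hoxa2 lies on chromosome 6 (52162417 to 52164831, minus strand, GRCm38). Hoxaas2 is a noncoding transcript on the opposite strand whose gene model starts 842 bases from that of Hoxa2 and overlaps Hoxa3. Whether the counting used strand is not given in the sources used here, so reads of overlapping models on opposite strands cannot be told apart. It had 0.181, 0.196 and 0 CPM in PA1 and 40.6, 34.8 and 29.9 CPM in PA2 (log2 difference 5.00, adjusted p 1.48e-30).

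The 250 bases before the start of Hoxa2 are shown because Hoxa2 and Hoxaas2 are read from neighbouring starts that are both high in PA2. The sequence is from RefSeq (GRCm38.p6, chr6:52164832-52165081, minus strand, within the gene model Gm28308 and upstream of the Hoxa2 model). Capitals mark the match to TGATNNAT, a form of the site bound by Hox and Pbx proteins together, searched on both strands.
Hoxa2 upstream: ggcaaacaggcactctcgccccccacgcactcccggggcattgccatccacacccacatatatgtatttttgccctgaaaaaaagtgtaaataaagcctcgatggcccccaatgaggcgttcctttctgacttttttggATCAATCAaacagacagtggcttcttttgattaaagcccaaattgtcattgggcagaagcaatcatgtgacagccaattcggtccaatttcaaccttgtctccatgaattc
The match is on the opposite strand and begins 111 bases before the start. Of 18428 genes tested, 11361 had such a window, and 4.86% of these (552) held the motif.

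Of 8 tested Hox genes of the anterior classes, 4 were higher in PA2 and none in PA1, with a median log2 difference of 1.33 against 0.01 over all genes. Hoxb2, the paralog of Hoxa2 in the Hoxb cluster, had 0.241, 0.196 and 0.272 CPM in PA1 and 3.43, 2.80 and 3.79 CPM in PA2 (log2 difference 1.81, adjusted p 2.44e-10). Hoxa3, a gene of the more posterior arches, had 0.0602, 0 and 0 CPM in PA1 and 2.21, 1.84 and 2.52 CPM in PA2 (1.64, adjusted p 1.15e-10). Both genes were at or near the floor in PA1 and above it in every PA2 library. Hoxa3 overlaps the more abundant Hoxaas2 on the other strand, so how many of its reads belong to Hoxaas2 cannot be told. Of 9 TALE homeobox genes, whose products bind DNA beside Hox proteins, Meis1 passed: 62.8, 65 and 73.9 CPM in PA1 against 154, 120 and 163 CPM in PA2 (1.1 ± 0.17, adjusted p 1.76e-05). Meis2 had 89.1, 99.9 and 102 CPM in PA1 and 109, 111 and 113 CPM in PA2 (0.19, adjusted p 0.314).

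After Hoxa2 and Hoxaas2, Rarres1 was the furthest toward PA2. Rarres1, a membrane protein gene first found as a target of retinoids, had 0.842, 0.0653 and 0 CPM in PA1 and 16.5, 36.2 and 31.5 CPM in PA2 (4.46 ± 0.39, adjusted p 7.35e-13). Of 19 tested retinoic acid genes, 3 were higher in PA2 and none in PA1, with a median of 0.07: Rarres1, the retinoid X receptor gene Rxrg (1.41, adjusted p 7.33e-05) and Rdh10, which makes retinaldehyde (0.89, adjusted p 0.000716). Rdh10 had 12.9, 11.8 and 15.1 CPM in PA1 and 29.2, 21.6 and 25.6 CPM in PA2. With the embryo block 5 were higher in PA2 and 1 in PA1. That 1 was Aldh1a2, the enzyme that makes retinoic acid, with 7.94, 1.44 and 2.27 CPM in PA1 and 1.91, 0.400 and 0.351 CPM in PA2 (-1.23, adjusted p 0.132 without and 0.0402 with the block). Cyp1b1, a cytochrome P450 that can oxidise retinol, stood outside the list and had 5.18, 4.77 and 6.80 CPM in PA1 against 29.4, 31.1 and 30.4 CPM in PA2 (2.26, adjusted p 4.66e-09).

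Notch signalling passes between neighbouring cells and acts in the arches on dorsal identity. Of 17 tested Notch genes, 3 were higher in PA2 and none in PA1 (median 0.23): the ligand gene Jag1 and the target genes Hey1 and Heyl. Hey1 had 15.6, 13.6 and 13.8 CPM in PA1 and 65.7, 79.5 and 79.4 CPM in PA2 (2.31 ± 0.20, adjusted p 6.60e-13). Heyl had 4.69, 3.46 and 2.00 CPM in PA1 and 16.2, 18.2 and 21.9 CPM in PA2 (2.21, adjusted p 3.01e-07). Jag1 had 18.6, 20.4 and 19.2 CPM in PA1 and 40.8, 48.2 and 67.0 CPM in PA2 (1.35, adjusted p 0.000924). Jag1 was separated without overlap, which the naming rule required of Hey1 and Heyl. It was named for passing the test, and 249 of the 252 genes that passed had no overlap. Its separation thus gives no separate support. The summed level of 11 endothelial markers was also higher in PA2 with the label (199 to 213 CPM in PA1 and 245 to 307 in PA2), and its part in these differences was not tested.

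Of 18 tested dorsoventral patterning genes, 3 were higher in PA2 and none in PA1 (median 0.45), namely Jag1, Hey1 and Pou3f3. Pou3f3, a POU homeobox gene of the dorsal arch, had 2.95, 3.98 and 1.09 CPM in PA1 and 19.8, 17.8 and 10.2 CPM in PA2 (2.24 ± 0.45, adjusted p 0.00133). The noncoding gene Pantr1, whose model starts 925 bases from that of Pou3f3 on the opposite strand, had 3.07, 2.48 and 0.635 CPM in PA1 and 18.2, 9.28 and 4.84 CPM in PA2 (1.88, adjusted p 0.00385). In embryo 3 both genes were lowest in both arches. The call of Pantr1 was lost without PA1 replicate 3 or PA2 replicate 1, with an adjusted p of up to 0.132. The ventral genes did not pass: Dlx5 had 53.9 to 69.4 CPM in PA1 and 56.6 to 83.4 in PA2 (0.13, adjusted p 0.958), and Hand2 had 14 to 16.3 CPM in PA1 and 9.04 to 14.2 in PA2 (-0.34, adjusted p 0.802). Hand1 had 54.8, 58.3 and 43.1 CPM in PA1 and 13.7, 7.68 and 26.3 CPM in PA2, which did not overlap but also did not pass (-1.80 ± 0.76, adjusted p 0.368).

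The window before Pou3f3 is shown because Pou3f3 and Pantr1 are read away from this stretch in opposite directions (RefSeq, GRCm38.p6, chr1:42695518-42695767, plus strand, within the gene model AC122898.1). It holds no match to TGATNNAT on either strand, so no letter is in capitals.
Pou3f3 upstream: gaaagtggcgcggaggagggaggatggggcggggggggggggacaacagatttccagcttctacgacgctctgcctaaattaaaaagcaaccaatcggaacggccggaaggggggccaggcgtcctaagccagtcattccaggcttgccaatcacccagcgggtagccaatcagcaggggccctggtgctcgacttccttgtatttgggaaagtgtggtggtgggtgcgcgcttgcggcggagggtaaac

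The pharyngeal pouches are outpocketings of the endoderm that lie between the arches. Of 20 tested pouch and endoderm genes, 7 were higher in PA2 and none in PA1 (median 0.42): Pax1, Pax9, Fgf3, Nkx2-6, Tbx1, Eya1 and Foxi2. Pax1, a paired box gene of the pouches, had 1.02, 1.11 and 0.272 CPM in PA1 and 17.2, 30.7 and 24.9 CPM in PA2 (3.81 ± 0.33, adjusted p 6.60e-13). Nkx2-6, a homeobox gene of the caudal pouches, had 0.542, 0 and 0 CPM in PA1 and 5.87, 5.44 and 6.87 CPM in PA2 (2.61, adjusted p 1.22e-06). Both were close to absent in PA1 and present in each PA2 library. Eya1, which encodes a transcriptional cofactor, differed less, with 72.3, 83.2 and 90.7 CPM in PA1 and 130, 129 and 129 CPM in PA2 (0.65, adjusted p 0.000651). The calls of Tbx1 (1.32, adjusted p 0.00979), Foxi2 (1.71, adjusted p 0.00242) and Pax9 (0.85, adjusted p 0.0445) rested on single libraries: leaving out 1 library gave adjusted p-values of up to 0.0974, 0.0677 and 0.208. For Tbx1 these were PA1 replicate 3 and PA2 replicate 1, for Foxi2 PA1 replicate 1 and PA2 replicate 2, and for Pax9 any of the 6. Plet1, a surface protein gene of epithelial progenitors, is not on the list and had 0.542, 0.196 and 0.363 CPM in PA1 against 3.81, 7.36 and 4.56 CPM in PA2 (2.16, adjusted p 2.74e-06). The summed level of all 22 pouch and endoderm genes was 169 to 183 CPM in PA1 and 284 to 314 CPM in PA2. Fgf3 and Gcm2 of this list were at 0 in all PA1 libraries, and the part of endoderm amount in these differences was not tested.

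FGFs are secreted growth factors exchanged between arch epithelium and mesenchyme. Of 21 tested FGF ligand and feedback genes, 4 were higher in PA2 (Fgf3, Fgf4, Fgf15 and Fgf20) and 1 in PA1 (Fgf8), with a median of -0.05. Fgf3 was not read in any PA1 library and had 1.98, 4.88 and 1.82 CPM in PA2 (1.88 ± 0.34, adjusted p 0.000241), at least 13.4-fold higher than 3 reads per library. Fgf4 was likewise at 0 in all 3 PA1 libraries and had 1.68, 3.84 and 1.19 CPM in PA2 (1.61, adjusted p 0.00860), at least 10.3-fold higher than 3 reads per library. Fgf15 had 0.181, 0.261 and 0.544 CPM in PA1 and 3.97, 3.12 and 1.96 CPM in PA2 (1.57, adjusted p 0.00143). These 3 genes are neighbours on chromosome 7 in the same direction, with 2.93 kb between the models of Fgf3 and Fgf4 and 31.3 kb between those of Fgf4 and Fgf15. None of the 7 other genes tested in this region, looked at after the FGF values were seen, passed, and the nearest coding ones, Ano1 and LTO1, had log2 differences of 0.58 and 0.10. With a pseudocount of 5 none of the 3 FGF genes passed (adjusted p 0.138 for Fgf3, 0.391 for Fgf4 and 0.151 for Fgf15), and without PA2 replicate 2 Fgf4 did not (adjusted p 0.176). Fgf20 stayed low, with 0.0602, 0.0653 and 0 CPM in PA1 and 0.458, 1.28 and 1.052 CPM in PA2 (0.86, adjusted p 0.000419). Fgf8, a signal of the oral epithelium, went the other way, with 22.9, 24.8 and 20.8 CPM in PA1 and 7.09, 6.08 and 6.24 CPM in PA2 (-1.67, adjusted p 2.74e-06).

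Of 13 tested genes of cranial mesoderm and muscle progenitors, 6 were higher in PA2 and 1 in PA1 (median 0.53). Tcf21, a basic helix-loop-helix factor of head muscle progenitors, had 2.89, 3.85 and 2.72 CPM in PA1 and 13.0, 12.9 and 11.9 CPM in PA2 (1.72, adjusted p 3.52e-05). The others toward PA2 were the related factor Msc (1.56, adjusted p 0.00640), the LIM homeobox genes Lhx2 (1.38, adjusted p 0.00991) and Isl1 (0.77, adjusted p 0.0337), Tbx1, and the myogenic factor Myf5 (1.00, adjusted p 0.0213). Leaving out 1 library ended the calls of Msc (without PA2 replicate 3), Lhx2 (PA1 replicate 3 or PA2 replicate 3), Isl1 (5 of the 6 libraries) and Myf5 (4 of the 6), with adjusted p-values of up to 0.0882, 0.0946, 0.217 and 0.225. The summed level of the 14 genes of this list overlapped between the arches, with 146 to 153 CPM in PA1 and 144 to 181 CPM in PA2.

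The jaw homeobox genes of PA1 are transcription factor genes of the upper and lower jaw mesenchyme. Of 14 tested, 8 were higher in PA1 and none in PA2, with a median of -1.55. Pitx1 had 61.6, 50.6 and 46.6 CPM in PA1 and 7.86, 4.80 and 5.89 CPM in PA2 (-2.92 ± 0.36, adjusted p 2.70e-08). Lhx8 had 77.3, 88.8 and 92.3 CPM in PA1 and 19.0, 13.8 and 11 CPM in PA2 (-2.51 ± 0.42, adjusted p 6.43e-05). Lhx6, a LIM homeobox gene like Lhx8, had 45.9, 36.9 and 40.8 CPM in PA1 and 11.1, 5.92 and 6.59 CPM in PA2 (-2.29, adjusted p 3.41e-06). For these 3 genes PA2 embryo 1 was the highest of the PA2 libraries. No library of PA2 reached a library of PA1, which the naming rule required. Msx1 and Msx2, targets of BMP signals, had log2 differences of -1.56 (379, 390 and 389 CPM in PA1, 117, 117 and 162 in PA2, adjusted p 3.18e-06) and -1.54 (adjusted p 6.47e-06).

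Alx1 and Alx4, which act in the mesenchyme of the face, were higher in PA1. Alx1 had 30.9, 12.3 and 10.4 CPM in PA1 and 3.13, 1.28 and 4.77 CPM in PA2 (-2.16, adjusted p 0.000213), so that PA1 of embryo 1 stood well above the other PA1 libraries. Alx4 had 35.8, 34.2 and 31.8 CPM in PA1 and 12.1, 10.2 and 8.20 CPM in PA2 (-1.66, adjusted p 0.000851). Among the genes of the list that did not pass were Barx1, Gsc, Nkx3-2, Shox2 and Six2. Barx1 had 180, 188 and 165 CPM in PA1 and 167, 181 and 184 CPM in PA2 (0.00 ± 0.63, adjusted p 1), and its libraries overlapped. This standard error reflects the spread of Barx1 in all groups, which was wider than in these 6 libraries. Six2 had 20.3, 9.21 and 3.81 CPM in PA1 and 19.8, 14.2 and 13.6 CPM in PA2 (0.72, adjusted p 0.455).

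Lhx8 and the noncoding gene AI606473 are read from starts that lie 161 bases apart on chromosome 3, in opposite directions. AI606473 had 41.4, 27.8 and 32.1 CPM in PA1 and 3.20, 2.48 and 1.19 CPM in PA2 (-3.43 ± 0.39, adjusted p 2.95e-09), so both members of the pair were higher in all PA1 libraries. The stretch between their gene models is shown as the shared start region of the pair (RefSeq, GRCm38.p6, chr3:154330660-154330820, plus strand). It holds no TGATNNAT on either strand, so no letter is in capitals.
Lhx8 to AI606473: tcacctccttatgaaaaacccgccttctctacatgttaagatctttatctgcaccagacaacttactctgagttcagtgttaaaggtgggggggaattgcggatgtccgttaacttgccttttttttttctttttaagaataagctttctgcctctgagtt

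T-box genes split between the arches: of 9 tested, Tbx22, Tbx3 and Tbx2 were higher in PA1 and Tbx1 in PA2. Tbx22, a gene of palate formation, had 15.2, 10.9 and 15.3 CPM in PA1 and 2.21, 0.480 and 0.631 CPM in PA2 (-2.89, adjusted p 1.68e-10). Tbx3 had 52.7, 58.1 and 51.1 CPM in PA1 and 15.3, 17.5 and 14.2 CPM in PA2 (-1.72, adjusted p 0.000651). Tbx2 (-1.30, adjusted p 0.0452) lost its call without any 1 of 5 libraries, with an adjusted p of up to 0.228, and with edgeR (adjusted p 0.0575). Slitrk6, a transmembrane protein gene, had 36.0, 29.7 and 37.2 CPM in PA1 and 9.38, 4.96 and 3.44 CPM in PA2 (-2.43, adjusted p 6.41e-05).

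Other signalling lists held few genes that passed. Of 17 tested BMP genes, Bmper was higher in PA2 (1.46, adjusted p 0.00897) and the BMP targets Bambi (-0.88, adjusted p 0.0183) and Id1 (-0.63, adjusted p 0.0353) in PA1. Of 23 Wnt genes, Rspo1 was higher in PA2 (1.19, adjusted p 0.0270) and the inhibitor gene Dkk1 in PA1 (-1.18, adjusted p 0.0355). Of 15 hedgehog genes, Foxf2 was higher in PA1 (-1.48, adjusted p 0.0157). These 6 calls each depended on at least 3 of the 6 libraries, with adjusted p-values of up to 0.369 when 1 was left out. Of 15 forkhead genes, Foxc1 (1.0453, adjusted p 0.000953) and Foxi2 were higher in PA2 and Foxf2 in PA1. With the embryo block the counts were 4 and 3, and those for the hedgehog list 0 and 2. The chemokine gene Cxcl12 was higher in PA2, with 94.8, 92.6 and 89.9 CPM in PA1 and 173, 187 and 170 CPM in PA2 (0.92, adjusted p 5.40e-06). Of 13 arch mesenchyme genes, Cxcl12 was the 1 higher in PA2 and Msx1 the 1 higher in PA1. The list, Msx1 included, summed to 1304 to 1372 CPM in PA1 and 1091 to 1175 in PA2. The skeletal fate list summed to 441 to 510 CPM in PA1 and 516 to 629 in PA2. Of 6 skeletal fate genes, Runx1 was higher in PA2 (1.13, adjusted p 0.0213), a call that was lost without any 1 of 5 libraries (adjusted p up to 0.152) and by edgeR (adjusted p 0.0577). None of 6 thyroid bud genes passed. Of 16 genes reported as Hoxa2 targets in PA2, Meis1 and Kcna5 (1.22, adjusted p 0.000301) were higher in PA2 and Alx4, Pitx1 and Lhx6 in PA1. Their median was 0.24 in the embryos labelled Hoxa2-/- and 0.63 in wildtype, and with the embryo block 4 were higher in each arch. This median mixes genes of both directions. In wildtype 7 of the 16 were higher in PA2 and 4 in PA1. The arch difference of 14 of the 16 was smaller with the label, against 7927 of 18428 among all genes. The direct test of the difference between label and wildtype passed for 1 of the 16. Kcna5 had 3.85, 3.85 and 3.81 CPM in PA1 and 11.9, 10.9 and 8.34 CPM in PA2.

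**Figure D2:**
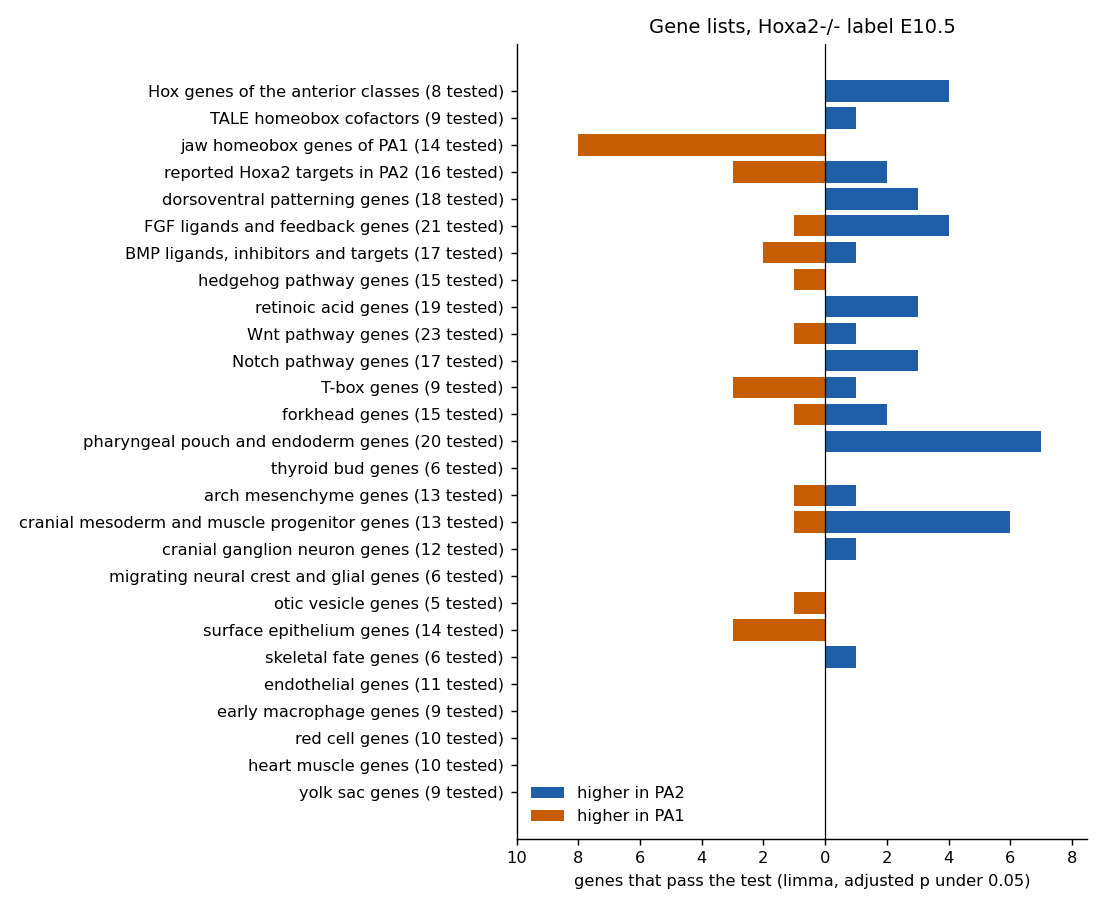
Number of genes of each list that passed at E10.5 in embryos labelled Hoxa2-/- (limma, adjusted p under 0.05), higher in PA2 to the right in blue and higher in PA1 to the left in orange, with the number tested in brackets. The jaw homeobox genes (8 of 14) reach furthest toward PA1 and the pouch and endoderm genes (7 of 20) furthest toward PA2.

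Markers of other cell types that a dissected arch can hold were compared as summed CPM. Of 14 tested surface epithelium genes, 3 were higher in PA1 and none in PA2 (median -0.56), and 6 with the embryo block. Krt14, a keratin gene of basal epithelium, had 16.8, 15.2 and 12.3 CPM in PA1 and 1.83, 0.960 and 1.75 CPM in PA2 (-2.65, adjusted p 1.05e-09). Fam83f had 16.5, 21.6 and 19.5 CPM in PA1 and 2.90, 3.92 and 3.51 CPM in PA2 (-2.18, adjusted p 8.17e-08). Tfap2c, an ectodermal transcription factor gene, was higher in PA1 by a log2 difference of -1.14 (adjusted p 9.58e-05). Trp63, which defines the surface epithelium, had 96.6, 111 and 126 CPM in PA1 and 70.9, 70.0 and 65.9 CPM in PA2, and Epcam had 64.8 to 71.2 CPM in PA1 and 65.6 to 85.8 in PA2. For 8 of the 14 genes, all PA2 libraries were below all PA1 libraries, against 9.03% of all genes, and for none were they above. The summed level of the list was 701 to 746 CPM in PA1 and 520 to 592 in PA2, and its part in the lower epithelial genes of PA2 was not tested.

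Neural markers had higher sums in PA2. The summed level of 14 cranial ganglion neuron genes was 40.5 to 45.4 CPM in PA1 and 67.3 to 79.7 in PA2. For 4 of the 14, all PA2 libraries were above all PA1 libraries, against 12.8% of all genes. Of the ganglion list Isl1 alone passed out of 12 tested. The defining genes Neurog1 and Neurog2 were at 0 in all PA1 libraries, and Neurog1 and Prph at 0 in all PA2 libraries. The 7 migrating crest and glial genes summed to 64.1 to 82.7 CPM in PA1 and 108 to 113 in PA2, and none of 6 tested passed. All PA2 libraries were above all PA1 libraries for 5 of these 7 genes, against 12.8% of all genes. Sox10, which defines these cells, had 0.301, 0 and 0.181 CPM in PA1 and 1.68, 1.60 and 0.771 CPM in PA2 (1.00 ± 0.63, adjusted p 0.627). The 11 endothelial genes summed to 199 to 213 CPM in PA1 and 245 to 307 in PA2, again with none passing. All PA2 libraries were above all PA1 libraries for 8 of the 11, against 12.8% of all genes, and 1 passed with the embryo block. Lists of red cells, macrophages and yolk sac overlapped between the arches (red cells 3395 to 8597 CPM in PA1 and 2233 to 7942 in PA2). Heart muscle genes summed to 5.44 to 9.51 CPM in PA1 and 10.8 to 13.1 in PA2. None of the genes of these 4 lists passed. Of 5 tested otic vesicle genes, Tbx3 passed, which is also an arch gene, and the list summed to 58.3 to 67.0 CPM in PA1 and 23.3 to 26.5 in PA2. Tbx3 alone, with the values given above, made up most of this sum in every library, so the sum is no measure of otic tissue. The part of these cells in the other differences was not tested.

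**Figure D3:**
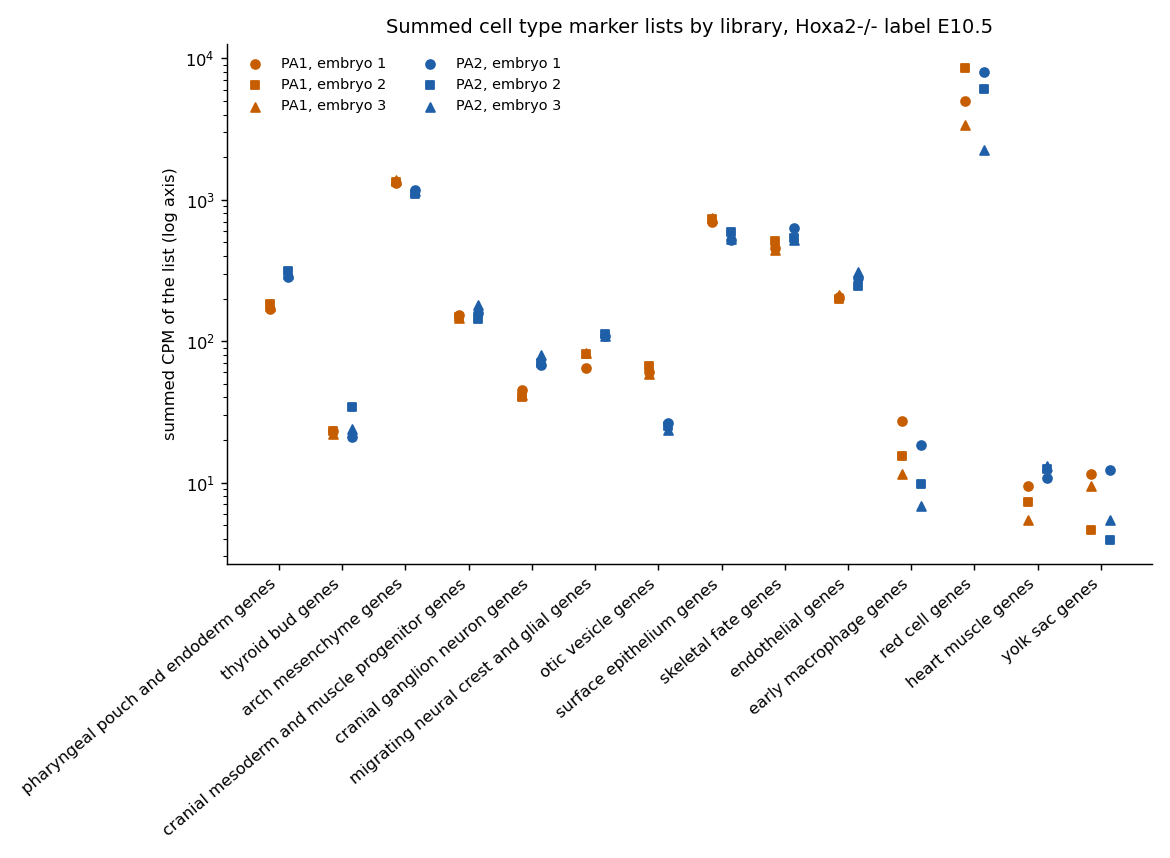
Summed CPM of each list of cell type markers on a log axis in the 6 libraries labelled Hoxa2-/- at E10.5 (orange PA1, blue PA2, 1 symbol per embryo). The pouch and endoderm, ganglion, glial, endothelial, skeletal fate and heart muscle sums are higher in all PA2 libraries. The surface epithelium, arch mesenchyme and otic vesicle sums are higher in all PA1 libraries, and the red cell sum overlaps.

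The arches of wildtype embryos at E10.5 were compared in the same fit, on separate libraries. There 280 genes passed (1.52%), 160 higher in PA2 (0.868%) and 120 higher in PA1 (0.651%), and 421 with the embryo block. Of the 252 genes of the embryos labelled Hoxa2-/-, 125 also passed in wildtype in the same direction, which is 49.6% of the 252 and 44.6% of the 280. They were 77 genes higher in PA2 and 48 higher in PA1, and no gene passed in opposite directions. The sign was the same in wildtype for 245 of the 252. Of the 127 genes that passed with the label and not in wildtype, 1 passed the direct test of the difference and 32 had an unadjusted p under 0.05. Of the 155 that passed in wildtype and not with the label, 6 passed that test and 62 had an unadjusted p under 0.05. Both sets were picked by tests on these same libraries, so low p-values were likely in advance and give no separate support. Over all 18428 genes, 602 had an unadjusted p under 0.05 in the direct test.

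**Figure D4:**
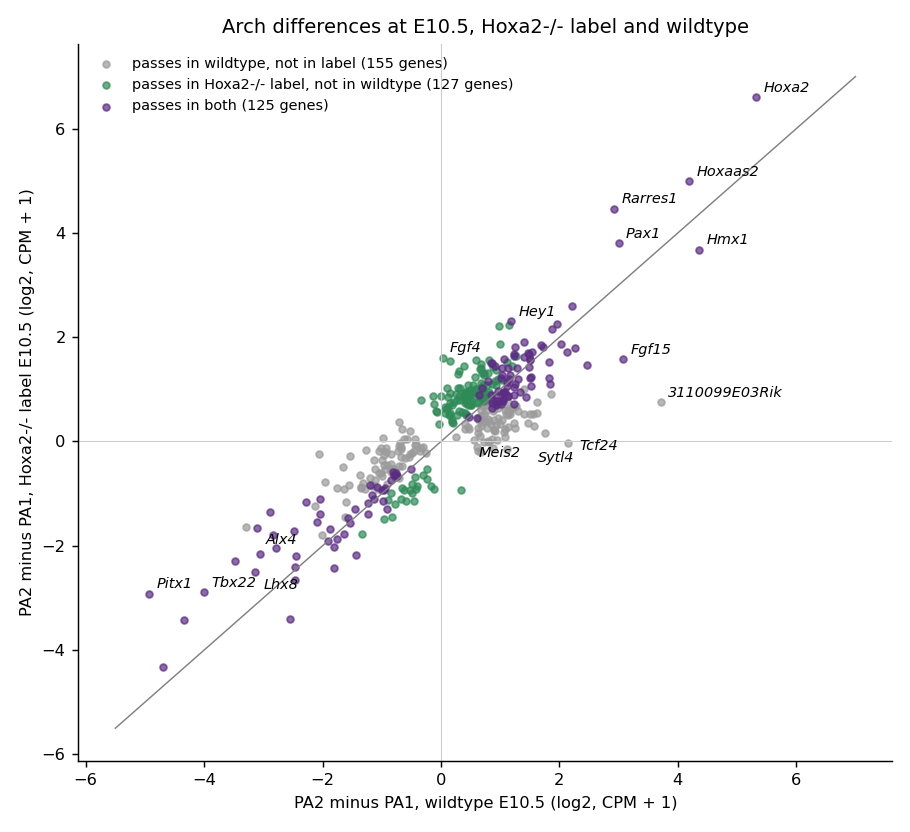
PA2 minus PA1 on the log2(CPM + 1) scale in wildtype embryos (horizontal) and in embryos labelled Hoxa2-/- (vertical) at E10.5, for genes that passed in either, with the line of equal differences. The 125 genes that passed in both lie in the same quadrants, and Meis2, Sytl4, Tcf24 and 3110099E03Rik lie near 0 or below 1 with the label.

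The difference between the arch differences of label and wildtype passed for 7 genes (0.038% of those tested), 2 positive (0.0109%) and 5 negative (0.0271%). At an unadjusted p under 0.05 there were 602. Meis2, a TALE gene, was the 1 of them that passed also with edgeR (adjusted p 5.31e-07). Its wildtype libraries had 85.8, 79.3 and 85.9 CPM in PA1 and 175, 182 and 169 CPM in PA2, a log2 difference of 1.06 that fell to 0.19 with the label (difference -0.87 ± 0.11, adjusted p 1.01e-06). With the label, PA1 stood at 89.1 to 102 CPM, above all wildtype PA1 libraries, and PA2 at 109 to 113 CPM, below all wildtype PA2 libraries. A pair of noncoding genes near Meis1 and Meis2, each on the strand of its neighbour, also passed, in the same direction. 3110099E03Rik, 335 kb from Meis2, had 162, 176 and 150 CPM in wildtype PA2 and 9.23, 3.76 and 5.89 CPM in PA2 with the label (difference -2.96, adjusted p 0.000356), and 8430419K02Rik, 5.51 kb from Meis1, had 2.48, 1.90 and 2.83 CPM against 0.381, 0.400 and 0.421 CPM (-1.11, adjusted p 0.000288). Neither passed with edgeR (adjusted p 0.299 for 3110099E03Rik and 1 for 8430419K02Rik) or with a pseudocount of 0.25 (0.485 and 0.944). Meis1 itself had 273, 265 and 263 CPM in wildtype PA2, and its arch difference of 1.83 there against 1.1 with the label did not differ past the threshold (-0.74, adjusted p 0.915).

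Among the jaw homeobox genes, 10 of 14 were higher in PA1 in wildtype against 8 with the label, and the median was -1.85 in wildtype against -1.55. The arch difference of 12 of the 14 was smaller with the label, against 7927 of 18428 among all genes, and none of the 14 passed the test of the difference. Pitx1 in wildtype PA2 had 0.259, 1.00 and 0.610 CPM against 7.86, 4.80 and 5.89 CPM with the label. Its arch difference was -4.93 in wildtype and -2.92 with the label (difference 2.01 ± 0.50, adjusted p 0.229), and this difference passed with the embryo block (adjusted p 0.000441) and not with edgeR (adjusted p 0.132). With the block Shox2 passed as well (1.25, adjusted p 0.0294), which had 5.55, 7.59 and 3.59 CPM in wildtype PA1 and 2.83, 2.29 and 0.816 CPM in PA1 with the label. Pitx1 overlaps the gene model Gm47071 on the other strand, which had -2.41 with the label and -2.47 in wildtype.

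For the FGF genes of chromosome 7 no difference between label and wildtype passed. Fgf4 was read in 1 of 6 wildtype libraries at E10.5, in PA2 at 0.0554 CPM, against 1.19 to 3.84 CPM in PA2 with the label (difference 1.58, adjusted p 0.919, unadjusted p 0.00411). At E9.0, E9.5 and E10.0 its mean in wildtype PA2 was 17.1, 13.0 and 5.46 CPM (4, 4 and 5 libraries). With the label the mean in PA2 at these stages was 20.3, 15.8 and 3.35 CPM (4, 5 and 5 libraries). Fgf15 had 11.2, 7.69 and 10.3 CPM in wildtype PA2 against 1.96 to 3.97 CPM with the label (difference -1.50, adjusted p 0.674, unadjusted p 0.00157). Fgf3 had 0.879, 1.00 and 1.33 CPM in wildtype PA2, an arch difference of 0.99 that did not pass (adjusted p 0.191). Hey1 had an arch difference of 1.19 in wildtype and 2.31 with the label (difference 1.12, adjusted p 0.229), and its wildtype PA2 libraries had 38.6, 39.0 and 37.4 CPM. Jag1 did not pass in wildtype (0.30, adjusted p 1), and the difference between label and wildtype did not pass either (1.04, adjusted p 1, unadjusted p 0.00738). The endothelial markers, whose sums were separated with the label, overlapped in wildtype (178 to 209 CPM in PA1 and 192 to 217 in PA2), and their part in the values of Hey1 and Jag1 was not tested.

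Earlier stages of embryos with the same label were compared in the same fit. At E10.0, with 5 embryos labelled Hoxa2-/-, 779 genes passed between the arches (4.23%), 577 higher in PA2 (3.13%) and 202 in PA1 (1.1%), and 1512 with the embryo block. Leaving out 1 library moved this count between 484 (without PA2 replicate 1) and 1153 (without PA1 replicate 1). Of the 252 genes of E10.5, 195 passed at E10.0 in the same direction, 77.4% of the 252 and 25% of the 779, none passed in the opposite direction, and 251 had the same sign. At E9.5, where 9.58% of the genes passed (6.12% higher in PA2 and 3.47% in PA1), 149 of the 252 passed in the same direction and 1 in the other. At E9.0, where 24.6% passed (12.1% and 12.5%), these numbers were 106 and 18. Of the 181 genes toward PA2, 77 had passed at all 3 earlier stages and 21 at none. Of the 71 toward PA1, 11 had passed at all 3 and 19 at none.

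The estimated arch differences of single genes were followed over the stages, without a test of when the arches were first apart. Pitx1 and Krt14 were apart at E9.0 already, by -3.25 and -2.31, as were Fgf3 and Fgf4, by 4.07 and 3.99. Hmx1, a homeobox gene of the outer ear region, had arch differences of 0.08, 0.31, 2.84 and 3.68 from the first to the last stage, and at E10.5 it had 0.963, 0.392 and 0.726 CPM in PA1 and 25, 17.5 and 19.6 CPM in PA2 (adjusted p 2.95e-09). Tbx22 had 0.06 at E9.0 and -2.11 at E10.0, and AI606473 had -0.05 and -3.32. Alx1 had -0.09 at E10.0 against -2.16 at E10.5. Pou3f3 had 0.88 and then 2.24. The change of the arch difference from E10.0 to E10.5 was tested over all genes and passed for 0 genes (0%) by limma and by edgeR. Unadjusted, limma gave 338 genes with p under 0.05 and edgeR 329. Changes between the other stages were not tested.

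**Figure D5:**
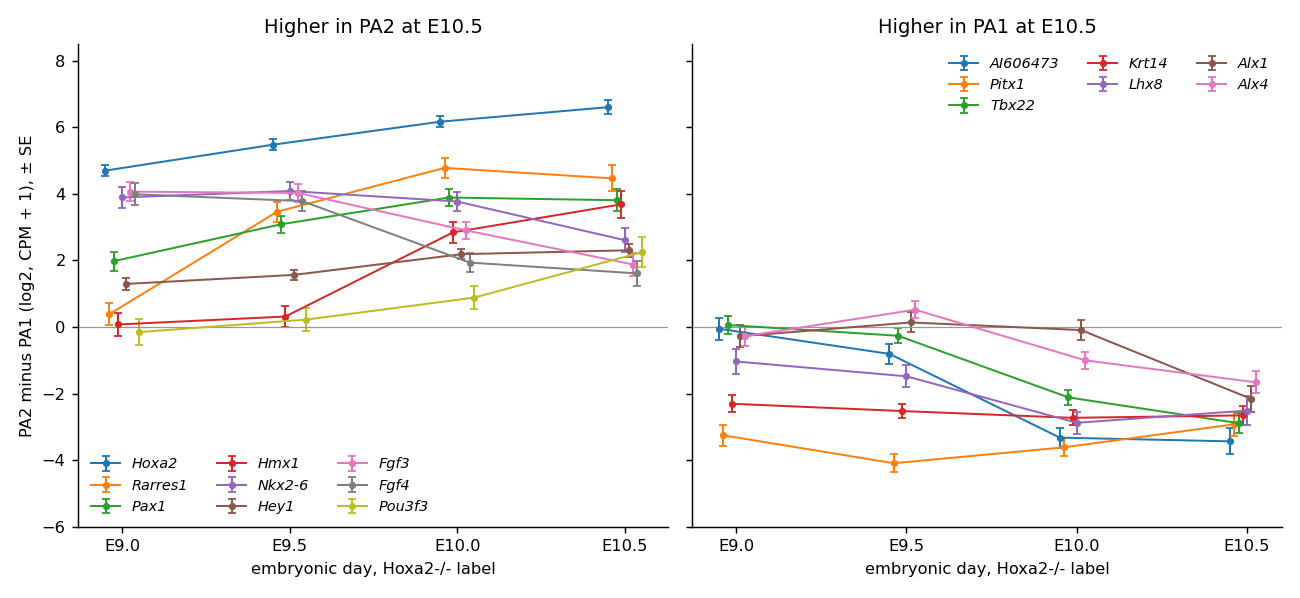
PA2 minus PA1 on the log2(CPM + 1) scale with its standard error at the 4 stages in embryos labelled Hoxa2-/-, for 9 genes higher in PA2 at E10.5 (left) and 7 higher in PA1 (right). Hoxa2, Fgf3, Fgf4 and Nkx2-6 are apart from E9.0, Hmx1 and Rarres1 lie near 0 at E9.0, and Alx1 is near 0 until E10.0 and stands at -2.16 in the last stage.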

How the data were processed

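Both arches were profiled by RNA-seq in 68 libraries of 16 groups, and 6 libraries carry the main comparison. Per the submitters' processing notes, bcl2fastq 2.18, TopHat2 2.1.1 and R 3.3.2 were used with mm10; the read counter, annotation and strandedness are not given in the sources used here. The authors deposited 1 table of 21948 genes as a signal in which each library is scaled to about the same total, called CPM here. All values were whole multiples of 1 read (tolerance 0.01 reads), from which 8912251 to 20619153 reads per library were recovered. The design had assumed plain CPM, and the test on logged values was kept.

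The 18428 genes that reached 1 CPM in 3 or more libraries were tested. limma 3.58.1 in R 4.3.3 was fitted to log2(CPM + 1) on the 68 libraries, fitting a mean for each group and a trended variance, and two-sided p-values were Benjamini-Hochberg adjusted. The text names the 14 largest differences toward PA2 and the 12 toward PA1 among genes that passed, without overlap and with a mean of at least 5 CPM in the higher arch and a symbol other than a Gm number or Rik clone, members of gene lists, and genes whose arch difference passed against wildtype; others are marked as chosen after their values were seen. Members and lists were chosen with earlier results of these data known. Same-numbered arches come from 1 embryo, and their deviations from group means correlated at 0.38, 0.43 and 0.37, against -0.26 to -0.13 for different numbers. Such deviations cancel out within a group, so positive values for equal numbers bring negative ones for different numbers. Alternatives were the pseudocount, the filter, median-of-ratios scaling, the groups in the fit, the embryo block, each library left out, and edgeR 4.0.16 on recovered reads, and the fits were tested on simulated data. RefSeq windows were matched by symbol. Some genes that the rule took are not reported here.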

Additional observations from a re-analysis of the deposited data

Results flagged for a closer look

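For 7 genes the difference between PA2 and PA1 at E10.5 differed between embryos labelled Hoxa2-/- and wildtype in a direct test over all genes (limma, adjusted p under 0.05). Genotype label and the division of the libraries described above coincide at E10.5, so neither can be named as the source of these differences. Meis2 (-0.868) kept its call under every alternative that was run, including edgeR and the embryo block.

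Tle4, a Groucho corepressor gene, had 77.1, 80.6 and 62.9 CPM in PA1 and 91.3, 95.2 and 100 CPM in PA2 with the label, against 81.9, 89.8 and 95.5 CPM in PA1 and 51.2, 63.9 and 48.9 CPM in PA2 in wildtype. The signs of the arch differences were opposite, 0.38 with the label (adjusted p 0.368) and -0.70 in wildtype (adjusted p 0.00638), a difference of 1.08 (1.0823, adjusted p 0.0396). It lost its call when 1 of 11 of the 12 libraries was left out (adjusted p up to 0.355) and with edgeR (adjusted p 0.124).

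Sytl4, a vesicle transport gene, had 16.1, 13.9 and 12.4 CPM in wildtype PA2 and 3.43, 5.28 and 3.37 CPM in PA2 with the label (difference -1.59, adjusted p 0.0129, and 0.0534 with the embryo block), and 6 of the 12 libraries each ended this call when left out (adjusted p up to 0.111). Tcf24, a basic helix-loop-helix gene, had 2.12, 7.59 and 2.83 CPM in wildtype PA2 and 0.0763, 0.080 and 0 CPM with the label (difference -2.1808, adjusted p 4.01e-05). The potassium channel gene Kcna1 had 0.686, 1.76 and 1.33 CPM in PA2 with the label and 0.104, 0.211 and 0.0554 CPM in wildtype PA2 (difference 1.0104, adjusted p 0.0248, and 0.0562 with the embryo block). With edgeR, Sytl4 (adjusted p 0.124), Tcf24 and Kcna1 (adjusted p 0.465) did not pass. 3110099E03Rik (-2.9616) and 8430419K02Rik (-1.1061), the noncoding genes near Meis2 and Meis1, did not pass with edgeR (adjusted p 0.299 and 1).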

How the results depend on the processing

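Of the 252 calls between the arches labelled Hoxa2-/-, leaving out 1 library kept between 151 (without PA1 replicate 3) and 176 (without PA1 replicate 2 or PA2 replicate 3). The replicate block by embryo raised the counts of genes from 252 to 474 at E10.5, from 280 to 421 in wildtype and from 779 to 1512 at E10.0. A filter of CPM at least 5 in at least 3 libraries gave 186 in wildtype. The 7 genes whose arch difference differed between label and wildtype became 2 with a pseudocount of 0.25, 20 with a pseudocount of 5, 3 with the stricter filter, 12 when the fit held the compared groups alone and 1 with edgeR. The change from E10.0 to E10.5 gave 1 gene with a pseudocount of 5 and 1 when other groups were left out of the fit, against 0. Leaving out 1 library gave 158 to 192 genes at E10.5, 197 to 238 in wildtype, 4 to 7 for label against wildtype and 484 to 1153 at E10.0; the cause of these changes was not tested. Of 63 named genes called at E10.5, 46 kept the call without each library and 57 with edgeR, which lost Dkk1 (adjusted p 0.0604), Myf5 (0.0715), Pax9 (0.0634), Rspo1 (0.0723), Runx1 (0.0577) and Tbx2 (0.0575). The other alternatives left the count at E10.5 between 193 and 311, but not always the same genes: 183 of the 252 calls were kept when the fit held the compared groups alone and 207 with edgeR. Genes near the floor of 3 reads, such as Fgf4 and Fgf20, are limited by depth.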

Other observations

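The single genes given here were chosen after their values were seen, from those that passed in embryos labelled Hoxa2-/- at E10.5, and stand for no group. Gdnf, a growth factor gene of neurons and kidney, had 0.541, 0.327 and 0.181 CPM in PA1 and 3.13, 2.88 and 3.37 CPM in PA2 (1.62, adjusted p 0.000436). The neurotrophin receptor genes Ngfr and Ntrk2 had log2 differences of 1.67 (adjusted p 0.00203) and 1.44 (adjusted p 6.04e-09). Ntrk2 had 4.87, 4.77 and 3.81 CPM in PA1 and 11, 16.2 and 14.8 CPM in PA2. Cntfr, the receptor gene for ciliary neurotrophic factor, had 2.35, 2.22 and 1.91 CPM in PA1 and 10.1, 5.76 and 7.92 CPM in PA2 (1.47, adjusted p 0.0193, and 0.0553 with edgeR). The markers of ganglion neurons and glia given above were also higher in sum in PA2, and their part in these values was not tested.

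Ebf1, a transcription factor gene, had 17.4, 15.7 and 15.1 CPM in PA1 and 39.6, 33.0 and 36.0 CPM in PA2 (1.12, adjusted p 0.0021). Ebf2 had 9.33, 13.3 and 11.7 CPM in PA1 and 33.6, 37.4 and 36.0 CPM in PA2 (1.57). Osr1 and Osr2, zinc finger genes of the jaw and palate, were higher in PA1, by -1.77 (adjusted p 0.0183) and -1.16 (adjusted p 0.0157). For both Osr genes PA1 and PA2 of embryo 1 were the highest libraries of their arch.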
